A study of Saccharomyces cerevisiae BY4741 with 6 samples.

Results

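The mitochondrial large ribosomal subunit of budding yeast was followed through the nuclear genes that encode its proteins. The group holds 39 of the 5631 rows of the deposited count table and was chosen by gene identity, as genes of the MRPL family together with RML2, IMG1, IMG2, MRP7 and MRP20. All 39 were present and all passed the filter on low counts. The RefSeq annotation of the R64 assembly names each of the 39 products as a mitochondrial ribosomal protein of this subunit.

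RNA selected for poly(A) tails was sequenced from 6 shake-flask cultures of Saccharomyces cerevisiae BY4741, 3 of the wild type and 3 of a strain in which pex3 is replaced by kanMX4. Both strains are MATa and both also carry the his3[delta]1 allele, with leu2[delta]0, met15[delta]0 and ura3[delta]0 deleted as well. Each strain is a single Euroscarf stock, and the cultures are labelled as biological replicates. Pex3 is a membrane protein required for making peroxisomes, and the cultures were grown on acetate, which relieves glucose repression and must be respired. The comparison addresses whether the transcriptome differs when functional peroxisomes are missing.

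Mitochondrial ribosomes translate the few messenger RNAs made from mitochondrial DNA, most of which code for subunits of the respiratory chain and the ATP synthase. Almost all proteins of these ribosomes are encoded in the nucleus, made in the cytosol and imported. The large subunit joins amino acids at its peptidyl transferase centre, and the new chain leaves through an exit tunnel towards the inner membrane. In this yeast, the RNA-binding protein Puf3 binds many nuclear transcripts for mitochondrial proteins through a short element in their 3′ untranslated region, and it acts on their decay and translation according to the carbon source.

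The Puf3-type element was present next to every member. The motif TGTANATA, where N is any base, was searched on the coding strand in the 250 bases after the stop codon, and it was found for 39 of 39 members. The same search found it for 16.0% of the 5504 nuclear protein-coding genes tested. The following sites belong to the members with the lowest p-values (RML2, MRPL7, MRPL24) and to the shortest member (MRPL39). Sites of some of the other members with named places in the subunit (MRP7, MRPL4, MRP20, MRPL22) are shown as examples. MRPL7 and MRPL24 have 2 motifs each, and the one nearer the stop codon is shown. Each run has 30 bases of the R64 reference in 5′ to 3′ order on the gene's strand, with the motif in capitals.
RML2: gtccacaatcaTGTAAATAtaaatattgaa
MRPL7: cccattcgtcaTGTAAATAtataaactgta
MRPL24: tggttttccccTGTATATAaaaaagcatat
MRP7: ttaagaatgccTGTAAATAttactattttg
MRPL4: accctctctccTGTAAATAtatatatatat
MRP20: cccctcacactTGTATATAcggagcaaact
MRPL22: tattgtgattcTGTAAATAacaactagttt
MRPL39: ttcatttatccTGTAAATAagtaatggata

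The RML2 run lies at chrV:59531-59560 on the minus strand and the MRPL7 run at chrIV:937564-937593 on the plus strand. The MRPL24 run is at chrXIII:650856-650885 (plus), that of MRP7 at chrXIV:621243-621272 (minus) and that of MRPL4 at chrXII:1015467-1015496 (plus). The remaining 3 are at chrIV:1278499-1278528 (plus) for MRP20, chrXIV:303532-303561 (minus) for MRPL22 and chrXIII:251207-251236 (minus) for MRPL39. None of these motifs, nor any of the 49 found for the members, lay under another annotated gene that has a row in the count table. Annotated genes without such a row were not checked.

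The first base of the 49 motifs was 13 to 238 bases after the stop codon, with a median of 55, and 35 of the 39 members had one within 100 bases. Of the 5465 other genes 842 had a motif; 584 of these, or 69.4%, had one within 100 bases, and the median position of their motifs was 66. A cytosine 2 bases before the motif, a position where Puf3 is known to prefer that base, was present for 33 of the 39 members. It was present for 4.19% of the other genes, most of which had no motif. Counted by motif, it stood before 67.35% of the member motifs and 25.2% of the motifs of the other genes. The mitochondrial small subunit was much like the members. There the cytosine was present for 24 of 32 genes and 61.5% of motifs, and 29 of the 32 genes had a motif within 100 bases. The variable base was A in 18 member motifs, T in 19, C in 11 and G in 1. A match is a description of the reference sequence, and no binding was measured here. More than one motif was found for 9 members, and MRPL19 had 3.

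**Figure D1:**
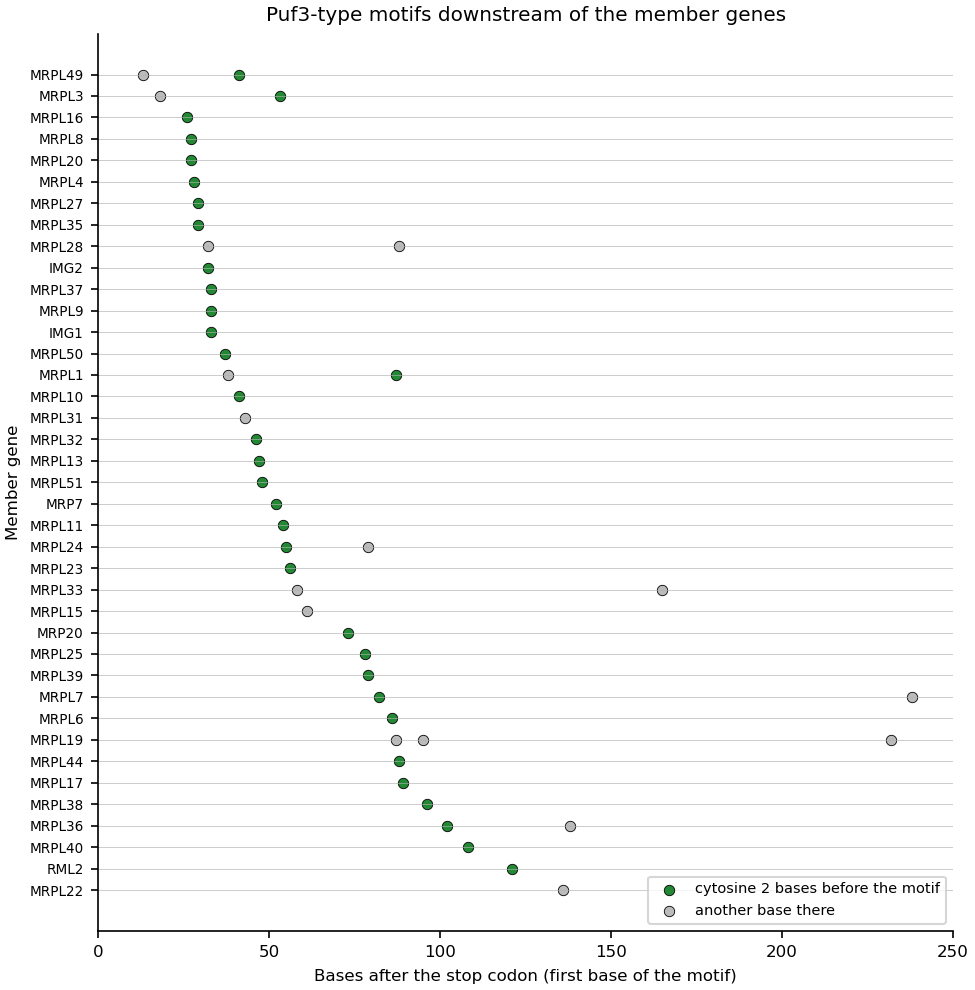
Position of each Puf3-type motif (horizontal axis, bases from the stop codon to the first base of the motif) for the 39 member genes (vertical axis, ordered by their nearest motif). Green points have a cytosine 2 bases before the motif and grey points another base; every gene has at least 1 point, and 35 of the 39 have a point within 100 bases.

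The element was also searched next to other gene groups. It was found for 32 of 32 genes of the mitochondrial small subunit, for 6 of 6 other large subunit genes (YML6, MNP1, MHR1, MRP49, MRX14 and RTC6) and for 13 of 13 mitochondrial aminoacyl-tRNA synthetase genes. It was found for 7 of 8 mitochondrial translation factor genes, 3 of 3 genes for insertion into the inner membrane and 3 of 5 genes for assembly of the large subunit. It was found for 6 of 79 genes of the cytosolic large subunit. A second motif, AATTTT, known from the promoters of mitochondrial ribosomal protein genes in Candida albicans, was searched on both strands of the 250 bases before the start codon. It was present for 16 of the 39 members (41.0%) and for 49.7% of all nuclear protein-coding genes tested.

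The members were spread over the genome. They lay on 13 chromosomes, with at most 6 on any of them, on IV and on XIV. MRPL44 was the 1 member whose coding sequence had more than one part. Their coding lengths ran from 213 bases for MRPL39 to 1182 bases for RML2, with a median of 645, against 1272 bases for all genes tested that have a coding length. Their GC content had a median of 40.1%, against 39.8% for all genes. A search among the R64 genes found no similar copy of any member, apart from shared bases where genes overlap. MRPL19 overlaps YNL184C by 113 bases on the same strand, and MRPL51 overlaps YPR099C by 323 bases on the opposite strand. Reads in the shared bases of MRPL19 cannot be assigned by strand. For MRPL51, the sources used here do not say if reads were counted by strand, and YPR099C has no row in the count table. The values of these 2 members are therefore uncertain.

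The libraries held 6782522 to 9410398 counts. After scaling between libraries with TMM factors, the members took 0.206% to 0.238% of the scaled total. The count of a member in a library ranged from 27 to 1351, and 4 members (MRPL25, MRPL33, MRPL39 and MRPL44) had a library under 100 counts. Every pair of libraries differed by more than counting error, with a chi-square of at least 6.80 per degree of freedom, so all 6 were kept as separate samples. The row of the deleted gene was not analysed here, so genotype rests on the labels. Genes that mark the labelled mating type measured 268 ± 11.4 CPM (counts scaled to one fixed library total) for the a-cell receptor STE2 and 116 ± 3.24 CPM for the a-cell protease BAR1 in the wild type, while the alpha-cell receptor STE3 measured 29.6 ± 3.36 CPM (SD, n = 3). With the deletion STE2, BAR1 and STE3 measured 246 ± 14.3, 96.6 ± 10.9 and 27.9 ± 1.72 CPM. BAR1 was lower in every deletion library than in any wild-type one (log2 fold change -0.27, edgeR adjusted p 0.491). The libraries are bulk cultures, in which fewer cells of a kind and less RNA per cell cannot be told apart.

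Proteins of the large subunit are needed in equal number apart from the stalk protein that MNP1 encodes, but their measured transcript levels were not equal. Levels were compared per coding length, as TPM, which divides counts by coding length and scales each library to one fixed total. The mean over the 6 libraries ran from 37.2 TPM for MRPL33 to 185.5 TPM for MRPL51, a ratio of 4.99. Both ends of this range carry limits given above, since MRPL33 is short with few counts and MRPL51 overlaps another gene. The members between the quartiles lay between 66.7 and 126.4 TPM, and their median of 93.0 TPM compared with 65.6 TPM for all genes tested, at the 63.3 percentile of all genes.

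MRPL51, which encodes a mitochondria-specific protein, measured 153.9, 184.4 and 199.8 TPM in wild-type replicates 1, 2 and 3 and 199.8, 191.1 and 184.4 TPM in the deletion replicates. MRPL4, for the tunnel-exit protein uL29m, had 181.8, 179.2 and 163 TPM in the wild type and 189.1, 170.8 and 187.4 TPM in the deletion strain. MRP20, for the tunnel-exit protein uL23m, had 177.3, 194.9 and 162.9 TPM against 178.3, 166 and 180.4 TPM. In the wild type the ranges of these 3 genes overlapped each other; with the deletion MRPL51 lay above MRP20 in every library, and MRPL4 overlapped both.

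At the other end, MRPL33 (uL30m) measured 26.0, 42.0 and 35.9 TPM in the wild type and 49.2, 41.5 and 28.5 TPM in the deletion strain. MRPL39 (bL33m) had 21.0, 46.5 and 34.6 TPM against 46.5, 53.9 and 34.9 TPM. MRPL25, for the mitochondria-specific mL59, had 32.8, 34.3 and 50.9 TPM against 44.9, 38.5 and 39.7 TPM. These 3 genes also overlapped each other, and each of them lay below MRPL51, MRPL4 and MRP20 in every library. Across the 39 members, coding length and level had a Spearman coefficient of 0.44, given as a description since these genes share the same 6 libraries.

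No member passed the test between the strains. In edgeR's quasi-likelihood test with Benjamini-Hochberg adjustment over 5628 genes, 0 members were called higher, where 0.142% of all genes were, and 0 were called lower, where 0.0355% of all genes were. The smallest adjusted p among the members was 0.507. Before adjustment, 3 members had p under 0.05, all higher in the deletion strain (background 3.93%), and by 0 that were lower (background 5.15%). DESeq2 also called 0 members, where 26 of all genes were called higher and 32 lower. It gave 0 members an unadjusted p under 0.05, against 8.30% of all genes. With limma voom 0 members were called, where 8 of all genes were higher and 2 lower. It put 3 members (7.69%) under 0.05, against 8.72% of all genes.

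The direction of the small differences was uneven. Of the 39 members, 33 had a log2 fold change above 0, or 84.6%, against 51.4% of all genes tested. Their median log2 fold change was 0.09, with a range from -0.09 to 0.42, against a median of 0.006 over all genes. The strains did not overlap for 7 members, all higher in the deletion strain, or 17.9% against 8.72% of all genes, and for 0 members that were lower, against 7.73% of all genes. No test was made over the group. Without wild-type replicate 1 the median was 0.04 and 27 members were above 0, where 49.3% of all genes were. In that fit 0 members had an unadjusted p under 0.05, against 7.60% of all genes. With limma voom and library quality weights the median was 0.06, with 28 members above 0, where 50.7% of all genes were.

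The 95% intervals of the fold changes bound what could have been missed. They lay inside -0.5 to 0.5 on the log2 scale for 33 of the 39 members and inside -1 to 1 for 38. The exception was MRPL39, whose interval ran from -0.30 to 1.15. The standard error (SE) of a fold change had a median of 0.10 and ran from 0.07 for RML2 to 0.31 for MRPL39, the member with the fewest counts.

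**Figure D2:**
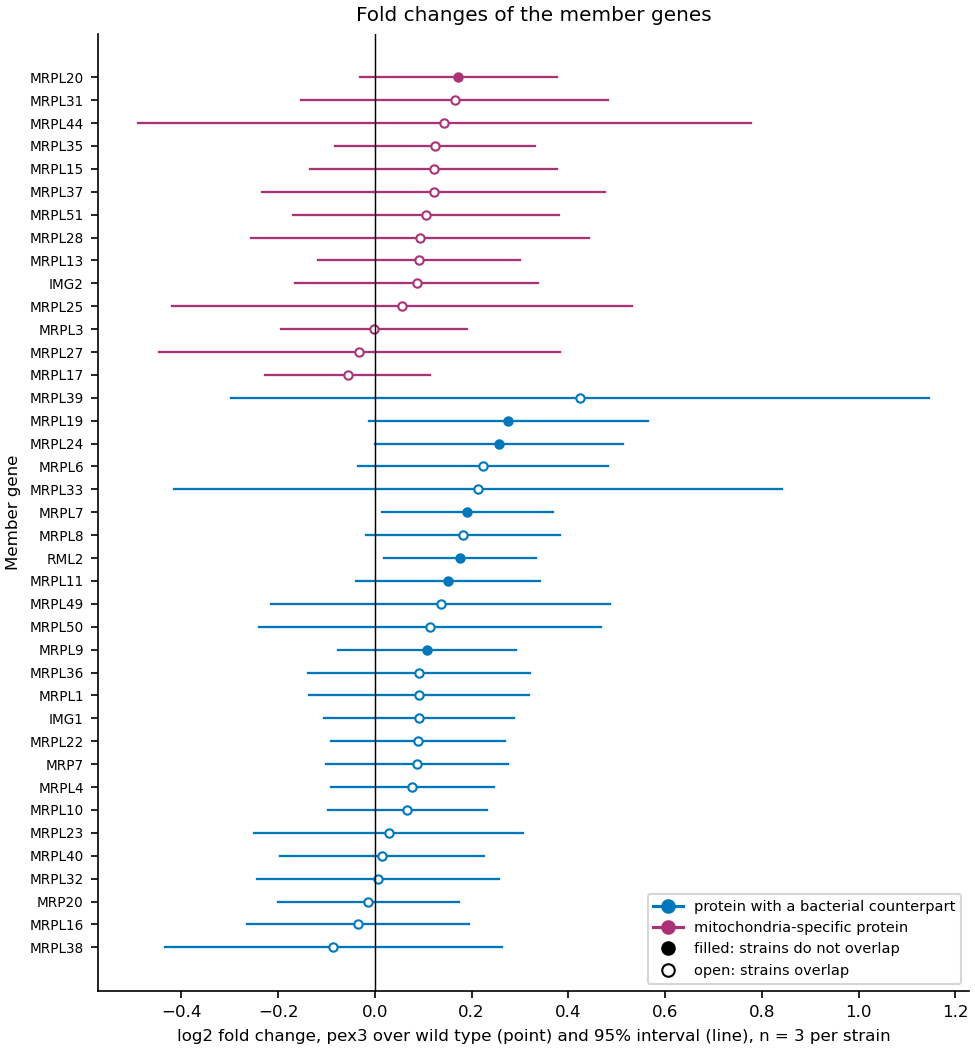
log2 fold change of each member gene in the pex3 strain over the wild type (horizontal axis; points from edgeR, lines are 95% intervals, n = 3 per strain), with genes ordered by fold change within 2 classes of protein (vertical axis). Of the 39 points 33 lie above 0, the 7 filled points mark genes whose strains do not overlap, and MRPL39 has the widest interval, from -0.30 to 1.15.

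RML2, MRPL9 and MRPL16 encode the proteins grouped here as the catalytic core, around the peptidyl transferase centre. RML2 (YEL050C), for the uL2m protein that lies at the catalytic core, measured 106.1, 108.1 and 103.2 CPM in the wild-type cultures, against 115.0, 117.3 and 126.1 CPM with the deletion. Every deletion value exceeded every wild-type value, and the log2 fold change was 0.18 (SE 0.07, edgeR adjusted p 0.507). MRPL9 (YGR220C), for uL3m, had 83.8, 83.3 and 78.9 CPM against 84.4, 84.2 and 96.5 CPM. Its strains also did not overlap, by a margin of less than 1 CPM, and its log2 fold change was 0.11 (SE 0.08, edgeR adjusted p 0.667). MRPL16 (YBL038W), for uL16m, had 57.3, 72.3 and 68.8 CPM against 65.7, 64.2 and 63.8 CPM, with a log2 fold change of -0.03 (SE 0.10). Its deletion libraries fell within the range of the wild type.

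The central protuberance, the crest of the large subunit that faces the small subunit and the transfer RNAs, was represented by 6 members. MRPL7 (YDR237W), for uL5m, measured 45.8, 46.1 and 47.5 CPM in the wild-type cultures, against 52.4, 53.0 and 54.0 CPM with the deletion. The strains were apart and the replicates of each lay close together, but the log2 fold change of 0.19 (SE 0.08) did not pass the test (edgeR adjusted p 0.517). MRP7 (YNL005C), for bL27m, whose bacterial counterpart reaches towards the catalytic centre, had 137.5, 151.8 and 141.8 CPM against 148.6, 144.1 and 165.3 CPM. Its strains overlapped (log2 fold change 0.09, SE 0.08). The other 4 members of this region, MRPL36 (bL31m), MRPL35 (mL38), MRPL28 (mL40) and MRPL17 (mL46), overlapped between strains as well. Their log2 fold changes were 0.09, 0.12, 0.09 and -0.06.

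The stalks that guide factors and transfer RNAs contain the products of MRPL1, MRPL11 and MRPL19. MRPL19 (YNL185C), for the stalk-base protein uL11m, measured 19.6, 24.3 and 22.9 CPM in the wild-type cultures, against 26.5, 25.1 and 29.4 CPM with the deletion. The strains were apart, and the log2 fold change stood at 0.28 (SE 0.12; edgeR adjusted p 0.539), and the overlap with YNL184C given above applies. MRPL11 (YDL202W), for uL10m, had 49.6, 51.2 and 54.1 CPM against 58.3, 54.5 and 59.5 CPM. Its strains were apart by a narrow margin (log2 fold change 0.15, SE 0.08, edgeR adjusted p 0.590). MRPL1 (YDR116C), for uL1m, overlapped between strains, with a log2 fold change of 0.09 (SE 0.10).

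Around the mouth of the exit tunnel lie the products of MRPL4, MRPL22, MRP20 and MRPL40. None of the 4 genes separated the strains. MRPL22 (YNL177C, uL22m) measured 74.5, 70.9 and 81.8 CPM in the wild-type cultures, against 80.5, 79.1 and 82.3 CPM with the deletion. The log2 fold changes were 0.08 for MRPL4 (YLR439W), 0.09 for MRPL22, -0.01 for MRP20 (YDR405W) and 0.01 for MRPL40 (YPL173W, uL24m), with SEs from 0.07 to 0.09.

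The 2 shortest members had few counts and wide errors. MRPL39 (YML009C) measured 3.60, 8.20 and 6.26 CPM in the wild-type cultures, against 8.30, 9.60 and 6.17 CPM with the deletion, and its strains overlapped (log2 fold change 0.42, SE 0.31, edgeR adjusted p 0.667). MRPL33 (YMR286W) had 5.46, 9.08 and 7.95 CPM against 10.8, 9.06 and 6.17 CPM and also overlapped (log2 fold change 0.21, SE 0.27). Single libraries weighed on both values. Without wild-type replicate 1 the log2 fold change was 0.17 for MRPL39 and 0.04 for MRPL33, and without deletion replicate 1 that of MRPL33 was 0.03. In both genes the wild-type replicate 1 was the lowest library, and in the deletion strain replicate 3 was the lowest.

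MRPL24 (YMR193W), for bL28m, was the third member with an unadjusted p under 0.05. It measured 39.2, 50.1 and 44.2 CPM in the wild-type cultures, against 51.6, 50.8 and 57.1 CPM with the deletion, and its log2 fold change came to 0.26 (SE 0.11; edgeR adjusted p 0.539). The strains did not overlap, though wild-type replicate 2 lay within 1 CPM of the nearest deletion library. MRPL6 (YHR147C), for uL6m, had 43.7, 51.7 and 57.4 CPM against 62.6, 58.9 and 57.1 CPM, so its strains overlapped (log2 fold change 0.22, SE 0.11). MRPL20 (YKR085C), for the mitochondria-specific mL58, was the seventh member whose strains were apart, with 54.1, 59.9 and 59.8 CPM against 64.8, 61.2 and 70.1 CPM.

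The lowest fold changes were near 0. MRPL38 (YKL170W), for uL14m, had a log2 fold change of -0.09 (SE 0.15), and MRPL17 (YNL252C), MRPL16, MRPL27 (YBR282W, for mL41) and MRP20 followed with -0.06, -0.03, -0.03 and -0.01. MRPL3 (YMR024W, for mL44) was the sixth member at or under 0, with -0.002. All 6 overlapped between strains. The 25 members with a counterpart in bacterial ribosomes had fold changes around a log2 median of 0.09, and 22 were above 0. The 14 mitochondria-specific members had 0.10, with 11 above 0. The other 15 members overlapped between strains as well, with log2 fold changes from 0.007 for MRPL32 to 0.18 for MRPL8. Those with a bacterial counterpart were IMG1 (YCR046C, bL19m), MRPL8 (YJL063C, bL17m), MRPL10 (YNL284C, uL15m), MRPL23 (YOR150W, uL13m), MRPL32 (YCR003W, bL32m), MRPL49 (YJL096W, bL21m) and MRPL50 (YNR022C, bL9m). The mitochondria-specific ones were IMG2 (YCR071C, mL49), MRPL13 (YKR006C, mL50), MRPL15 (YLR312W-A, mL57), MRPL25 (YGR076C), MRPL31 (YKL138C, mL60), MRPL37 (YBR268W, mL54), MRPL44 (YMR225C) and MRPL51 (YPR100W, mL43).

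Cultures of the same strain differed in these genes too. Wild-type replicate 1 was the lowest of the 6 libraries for 24 members, or 61.5%, against 28.0% of all genes tested. Relative to each gene's mean log2 CPM over the 6 libraries, the median over the members was -0.18 in wild-type replicate 1, and -0.004 and 0.014 in replicates 2 and 3. It was 0.076, 0.019 and 0.070 in deletion replicates 1, 2 and 3. The wild-type medians thus ranged over more than the median fold change of 0.09. The medians over all genes lay between -0.013 and 0.004.

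**Figure D3:**
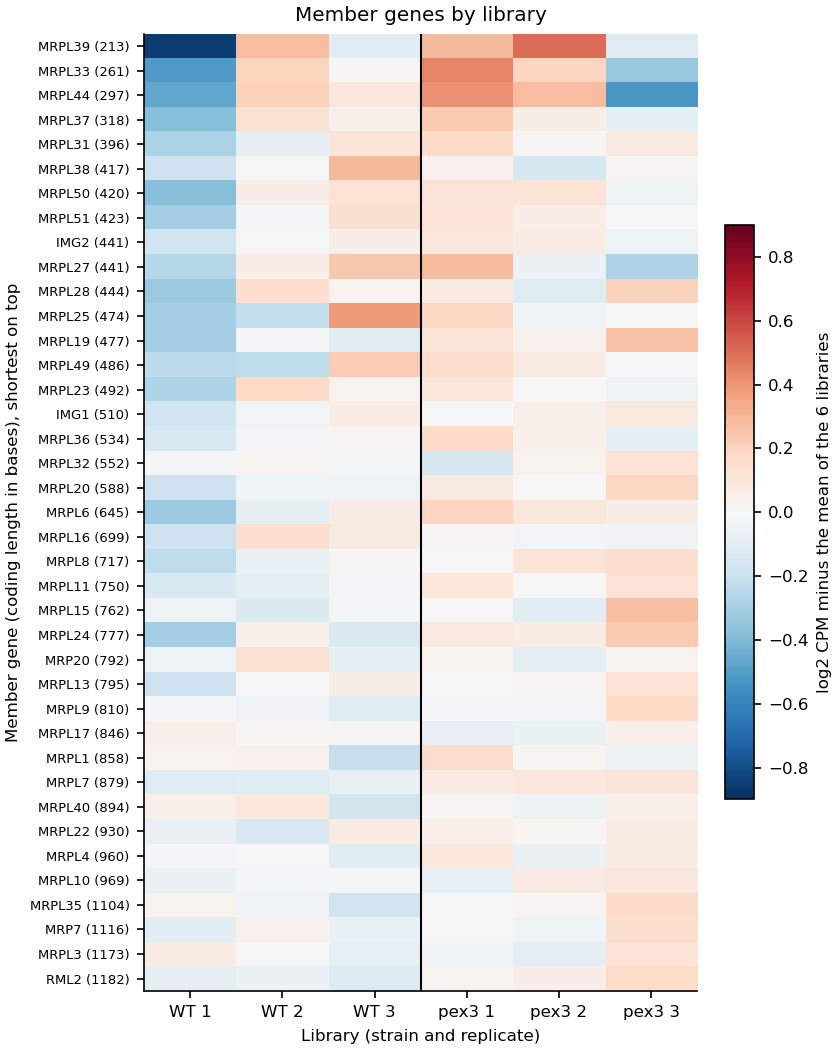
log2 CPM of each member gene minus its mean over the 6 libraries (colour, from blue below the mean to red above it) in each library (horizontal axis), with genes from the shortest coding length at the top (MRPL39, 213 bases) to the longest at the bottom (RML2, 1182 bases). Wild-type replicate 1 is blue for 34 of the 39 genes and most strongly so at the top.

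These differences between cultures went with the length of the gene. Across the 39 members the Spearman coefficient between coding length and the deviation from the mean was 0.81, -0.30 and -0.61 for the wild-type cultures in order of number. It was -0.68, -0.30 and 0.54 in deletion replicates 1, 2 and 3. The deviations of a gene sum to 0 over the libraries, so these coefficients are not independent. The same coefficients over all genes with a coding length had the same signs and were smaller, with -0.39 for the third wild-type culture and 0.34 for the first as their extremes.

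In wild-type replicate 1 the 20 members of 645 bases or less had a median deviation of -0.30, and the 19 longer members -0.06. MRPL39 was at -0.86 there, MRPL33 at -0.51 and MRPL44, for mL53, at -0.47. In deletion replicate 3 the shorter members had a median of -0.004 and the longer ones of 0.12. MRPL44 was at -0.52 in that library and at 0.41 in deletion replicate 1, so that the replicates of the deletion strain spread over more than its fold change of 0.14. No RNA quality value was at hand, and the part of RNA quality or library preparation in this pattern was not tested.

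**Figure D4:**
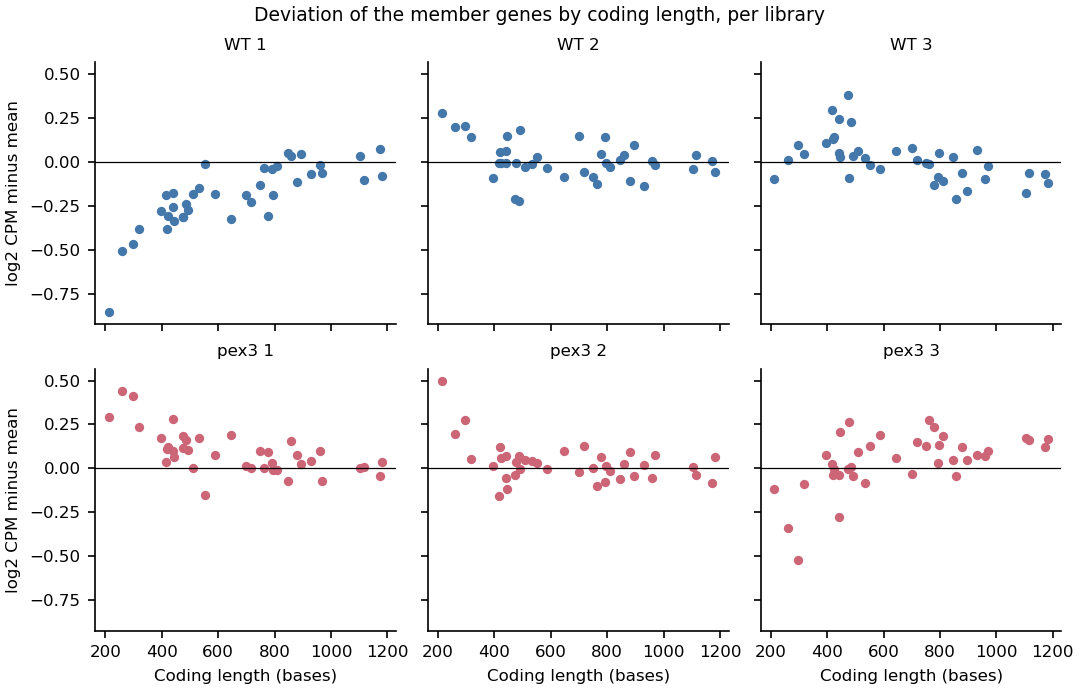
Deviation of log2 CPM from the mean of the 6 libraries (vertical axis) against coding length in bases (horizontal axis) for the 39 member genes, in one panel per library (blue, wild type; red, deletion strain). Short genes lie lowest in wild-type replicate 1, down to -0.86 for MRPL39, and several also lie low in deletion replicate 3, down to -0.52 for MRPL44.

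A correction for coding length, fitted in each library on all genes, left every deletion median above every wild-type median. After it the median deviation of the members was -0.066, -0.024 and -0.060 in the wild-type replicates and 0.045, 0.016 and 0.102 in the deletion replicates. The same order held for the mitochondrial small subunit, the cytosolic large subunit and all genes tested. It did not hold for the other large subunit, translation factor, aminoacyl-tRNA synthetase, assembly and membrane insertion genes. For the synthetase genes the medians were -0.098, -0.002 and 0.018 in the wild type and -0.043, -0.003 and 0.134 with the deletion. For the mitochondrial small subunit the medians were -0.033, -0.0006 and -0.044 in the wild type and 0.031, 0.042 and 0.080 with the deletion. For the cytosolic large subunit they were -0.090, -0.084 and -0.037 against 0.119, 0.063 and 0.033. Over all genes they were -0.022, -0.006 and 0.0007 against 0.013, 0.005 and 0.005. The strains then did not overlap for 12 members that were higher, or 30.8% against 10.4% of all genes, and for 0 that were lower, against 8.05% of all genes. With the correction in the edgeR fit, 34 members had a log2 fold change above 0, where 55.0% of all genes did. Their median was 0.11, against 0.02 for all genes. An unadjusted p under 0.05 was reached by 5 members, RML2, MRPL7, MRPL24, MRPL8 and MRPL6, or 12.8% against 11.4% of all genes in the same fit, and 0 were called (smallest edgeR adjusted p 0.384). The correction also turned the sign of MRP20 (0.007), MRPL3 (0.02) and MRPL32 (-0.002), all near 0.

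Other genes of mitochondrial translation were read in the same way. Of the 32 small subunit genes 25 had a log2 fold change above 0, with a median of 0.07, and 0 were called. MRPS5 (YBR251W) had the lowest p among them and had means of 60.7 ± 0.833 CPM without and 71.4 ± 3.43 CPM with the deletion (SD, n = 3; edgeR adjusted p 0.476). MRPS12 (YNR036C), next by p, measured 122.3 ± 5.43 and 133.7 ± 2.39 CPM. Of the 6 other large subunit genes 4 were above 0, and MNP1 (YGL068W), for the stalk protein bL12m, had a log2 fold change of 0.24 with an SE of 0.08 (edgeR adjusted p 0.487). MHR1, next by p, was at 0.12 (SE 0.09), and RTC6 was the lowest of these genes at -0.23 (SE 0.32).

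Of the 8 translation factor genes 7 were above 0, with a median of 0.09. They were led by the release factor gene MRF1 (log2 fold change 0.24) and the elongation factor gene MEF1 (0.16). Of the 13 aminoacyl-tRNA synthetase genes 8 were above 0, with a median of 0.005, with ISM1 for isoleucine at 0.22 and MSD1 for aspartate at 0.16. The 5 genes for assembly of the large subunit had 2 above 0, with the RNA methyltransferase gene MRM1 at 0.15 and the GTPase gene MTG2 at -0.17. The 3 genes that link the ribosome to the inner membrane (OXA1, MBA1 and MDM38) were all above 0, with MBA1 at 0.14 and MDM38 at 0.10. No gene of these lists was called.

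PUF3 (YLL013C) itself measured 103.7, 131.8 and 108.5 CPM in the wild-type cultures, against 125.5, 126.4 and 96.6 CPM with the deletion. Its strains overlapped, and its log2 fold change was 0.02 (SE 0.13, edgeR adjusted p 0.969).

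The cytosolic large subunit, whose genes are short as well, with a median coding length of 468 bases, had 78 of 79 genes above 0, a median log2 fold change of 0.14 and 0 called. RPL8A and RPL9A had its lowest p-values, with log2 fold changes of 0.37 and 0.25. Wild-type replicate 1 was the lowest library for 67 of these 79 genes. Whether the mitochondrial group differs from the cytosolic one was not tested.

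**Figure D5:**
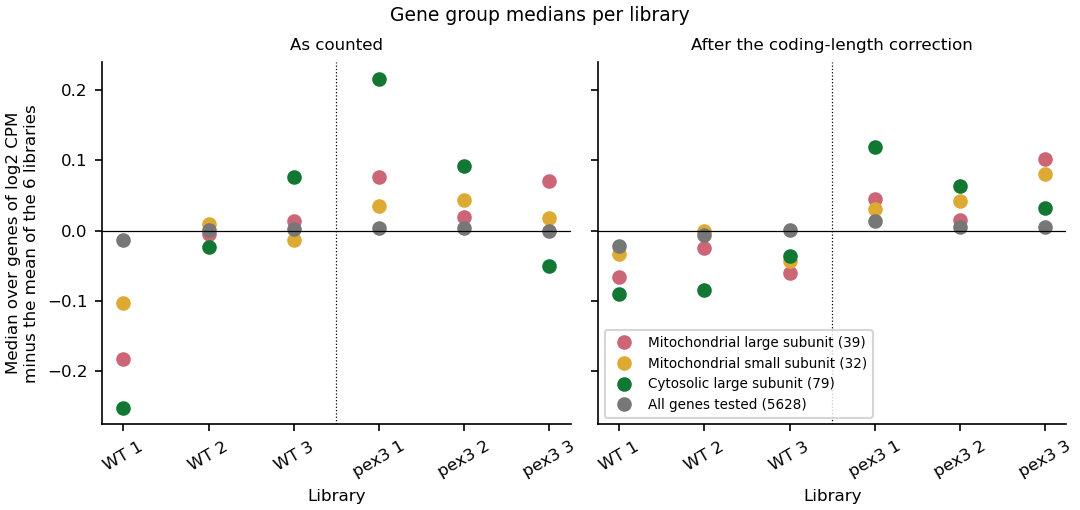
Median over the genes of a group of log2 CPM minus the mean of the 6 libraries (vertical axis) in each library (horizontal axis), as counted (left) and after the coding-length correction (right), with numbers of genes in the legend. As counted, the median of the mitochondrial large subunit is at its own lowest in wild-type replicate 1, at -0.18. After the correction its wild-type medians are -0.066, -0.024 and -0.060 and its deletion medians 0.045, 0.016 and 0.102. In the other groups shown, the corrected deletion medians also lie above the corrected wild-type medians.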

How the data were processed

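The authors deposited whole-number read counts per gene or RNA feature for 6 poly(A) libraries, made strand-specific per the labels' protocols. The submitters' processing notes name fastp 0.20.0, STAR, RSEM 1.3.3 and genome build R64. The role of each, the annotation and any filter are not given in the sources used here, and whether the deposited counts are rounded RSEM estimates is not stated. Columns were matched to samples by strain and replicate number.

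The main test was that of edgeR 4.0.16 under R 4.3.3 (quasi-likelihood, TMM factors, strain as the only term); filterByExpr kept 5628 of 5631 rows. P-values were adjusted over all of these by Benjamini-Hochberg, with a threshold of 0.05. Intervals are 95% from the SE and the test's degrees of freedom. Replicates are labelled biological, and whether they came from separate pre-cultures was not taken as known. CPM is TMM-scaled, and log2 CPM has a prior count of 2. TPM uses coding length in R64, without untranslated regions. The length and GC corrections subtract a loess curve (span 0.3) per library. Alternatives were DESeq2 1.42.0, limma 3.58.1 voom with and without quality weights, other scaling factors and filters, the 0.01 threshold, a block for replicate number, both corrections, and leaving out each library. The edgeR fit was tested on simulated counts. Similar copies were searched with BLAST+ 2.17.0. Symbols, sequences and coordinates come from RefSeq's R64, which matched 5522 rows.

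Members and lists were chosen with earlier results of these data known. Named with values were members under an unadjusted p of 0.05, the 5 largest and 5 smallest fold changes, the 3 highest and 3 lowest levels, members at named sites of the subunit, and the 2 lowest p-values of each other list.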

Additional observations from a re-analysis of the deposited data

How the results depend on the processing

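No member was called under any of the 18 alternative fits or at an adjusted p of 0.01. The number of members at an unadjusted p under 0.05, 3 in the main result, was 0 with DESeq2, 1 with upper quartile factors, 4 with quality weights and 5 (12.8%) each with the length correction, the GC correction, and the replicate block together with the length correction. Over all genes the shares were 8.30% with DESeq2, 8.72% with upper quartile factors, 19.95% with quality weights and 11.4%, 9.63% and 10.3% in the last 3 fits. The main result had 9.08%. Quality weights also gave the smallest adjusted p of any fit (0.146), 28 members above 0 and a median log2 fold change of 0.06. With the replicate block alone, 0 members were under an unadjusted p of 0.05, against 7.1% of all genes. The median log2 fold change in that fit was 0.10. Leaving out single libraries put 0 to 3 members under an unadjusted p of 0.05, against 5.3% to 14.2% of all genes. The 3 members (7.69%) were without wild-type replicate 3, where the share of all genes was 14.2%. These fits gave medians from 0.04 to 0.14 and smallest edgeR adjusted p-values from 0.291 to 0.842. They put 27 to 34 members above 0, where 49.3% to 52.5% of all genes were. The strains did not overlap for 8 to 15 members. Of all genes 11.35% to 16.9% did not overlap and were higher, and 10.25% to 16.5% were lower. The count of members was 15, all higher, without wild-type replicate 3, where 16.9% of all genes did not overlap and were higher. It was 13, of which 12 were higher, without deletion replicate 3, where 15.7% of all genes were. It was 12 with the length correction, which also moved the median deviation in wild-type replicate 1 to -0.066 and that in wild-type replicate 3 from 0.014 to -0.060. The median fold change stayed above 0 in every fit, at its lowest without wild-type replicate 1.

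For 22 members followed one by one over the 18 alternative fits, 382 values kept the sign of the main result and 14 changed it. The changes were all in MRP7, MRP20, MRPL16, MRPL27, MRPL28, MRPL38 and MRPL40. Of these, MRPL28 and MRP7 had main log2 fold changes of 0.09, at and near the members' median. MRP20 was at 0.00661 with the length correction and 0.00801 with the block added. With quality weights, MRP7 was at -0.00531, MRPL28 at -0.127 and MRPL40 at -0.0458, and MRPL24 moved from 0.26 to 0.13 and MRPL33 from 0.21 to 0.09. Over the fits without one library, MRP20 ran from -0.0585 to 0.0509, MRPL16 from -0.127 to 0.0285, MRPL27 from -0.195 to 0.0942, MRPL28 from -0.0343 to 0.190, MRPL38 from -0.195 to 0.0628 and MRPL40 from -0.0629 to 0.0615. The cause of these changes was not tested. Across genes, the departures from strain means of libraries 1, 2 and 3 had coefficients of -0.16, 0.23 and -0.26 between strains. Their mean was -0.06, against 0.04 for differently numbered libraries. With 3 libraries per strain these values cannot settle whether the numbers pair the cultures. Count columns of the same number share a prefix across the strains. The main test left the numbers out, and the replicate block was run as an alternative. Counts under 100 in a library limit MRPL25, MRPL33, MRPL39 and MRPL44.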
